A study of Homo sapiens with 21 samples.

Results

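The SOX genes encode transcription factors that share a high-mobility-group DNA-binding box. RNA of 10 of them was described here across all 7 groups of an A375 melanoma RNA-seq series. The genes were SOX10, SOX9, SOX8, SOX5, SOX6, SOX13, SOX4, SOX11, SOX12 and SOX2. They were taken from a fixed list whatever their values, and are 10 of the 58870 genes in each deposited table. A375 is an established human melanoma line that carries mutant BRAF. The study asked how melanoma cells without SOX10 differ from their parental cells, and whether SOX10 loss made with CRISPR/Cas9 resembles the loss seen after treatment with BRAF and MEK inhibitors.

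Each group had 3 libraries. gSOX10 #2 and gSOX10 #4 were A375 cells in which SOX10 had been targeted with a different guide RNA, and each was 1 clone, without a control clone that had received Cas9 alone. The clone number in the labels of gSOX10 #4 is one that the study's text gives to a clone of another melanoma line. CRT34 and CRT35 were A375 lines recovered from mouse tumors that had become tolerant or resistant to the inhibitors, and they were kept in culture with both drugs. In the Combo groups these lines had PLX4720, a BRAF inhibitor, at 1 µM and PD0325901, a MEK inhibitor, at 35 nM. In the DMSO groups they had vehicle, for a time that the sources used here do not give. Parental A375 cells were untreated, had not been in a mouse, and had no library with inhibitors, so that in each comparison of a CRT line with parental cells the line's history, its selection and its SOX10 state cannot be told apart. The study describes 3 independent replicates for each A375 clone, without saying what was independent. The labels do not state whether replicate libraries come from separate cultures, so p-values measure only the spread between these libraries.

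SOX factors bind short A/T-rich sites in the minor groove of DNA and usually act with a partner factor. Groups are named by letter from the similarity of their DNA-binding box. SoxE factors (SOX8, SOX9 and SOX10) direct neural crest cells, SOX10 toward glia and melanocytes and SOX9 toward cartilage. SoxD factors (SOX5, SOX6 and SOX13) have no transactivation domain of their own and cooperate with or oppose SoxE factors. SoxC factors (SOX4, SOX11 and SOX12) act in neural and mesenchymal progenitors, and SOX2, a SoxB1 factor, maintains stem cells and neural progenitors. In melanoma SOX10 is the SOX factor of the melanocytic and neural crest-like states.

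Values are RSEM read estimates divided by a factor for each library. A single read was worth 0.820 to 2.30 of these units, which corresponds to about 27.2 to 75.5 M reads a library. The lowest was CRT35 DMSO replicate 1, where values under 2.30 are below 1 read. No libraries held identical values. CRT34 Combo replicate 3 stood apart: over the 19290 genes kept for tests its mean Pearson correlation was 0.964 with its own group and 0.969 with CRT34 DMSO, and it was the only 1 of the 21 libraries nearer to another group than to its own. Melanocytic markers were incomplete in parental cells, where MLANA and TYR were at 0 in all 3 libraries. This was shared by the series: MLANA was at 0 in all libraries of every group, and TYR in every group but CRT35 Combo. Summed over 7 markers, neural crest and glial marker values were 1145 to 1652 in gSOX10 #2, 259 to 411 in gSOX10 #4 and 67.5 to 449 in the CRT groups, against 11865 to 16906 in parental cells. Over 6 fibroblast markers they were 2106 to 2730 in gSOX10 #2, 1323 to 1633 in gSOX10 #4 and 88958 to 269121 in the CRT groups, against 474 to 600 in parental cells. Their part in the SOX values was not tested. In bulk RNA, fewer cells with a transcript and less of it per cell cannot be told apart.

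The mix of SOX transcripts differed between the clones, the CRT lines and parental cells (values divided by the length of the canonical transcript). In gSOX10 #2 SOX9 was 40.2% ± 0.39 (SD, n = 3) of the 10-gene sum and SOX4 16.2% ± 1.6. In gSOX10 #4 SOX9 was 47.6% ± 7.0, followed by SOX12 with 16.4% ± 1.7. SOX4 had the highest share in all CRT groups, with 40.9% ± 14 in CRT34 Combo, 57.2% ± 3.8 in CRT34 DMSO, 44.3% ± 2.2 in CRT35 Combo and 43.0% ± 12 in CRT35 DMSO. SOX9 came next there, with 25.6%, 19.6%, 23.8% and 37.4% in the same order. In parental cells SOX10 was 61.4% ± 2.6 and SOX5 20.9% ± 2.2, while SOX9 was 0.886% ± 0.092.

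The sum of the 10 genes per kb of transcript was also lower in each group than in parental cells. It was 2914 ± 73 in gSOX10 #2, 1897 ± 247 in gSOX10 #4, 1175 ± 76 in CRT34 Combo, 2307 ± 338 in CRT34 DMSO, 805 ± 115 in CRT35 Combo and 1447 ± 136 in CRT35 DMSO, against 6590 ± 587 in parental cells (SD, n = 3 each). No library of the other groups reached the lowest parental one. The 3 SoxE genes together were 1328 ± 52 in gSOX10 #2, 1082 ± 230 in gSOX10 #4 and between 194 and 533 in the CRT groups, against 4112 ± 442 in parental cells. The gain of SOX9 was thus smaller than the loss of SOX10 on this scale, in every group.

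**Figure D1:**
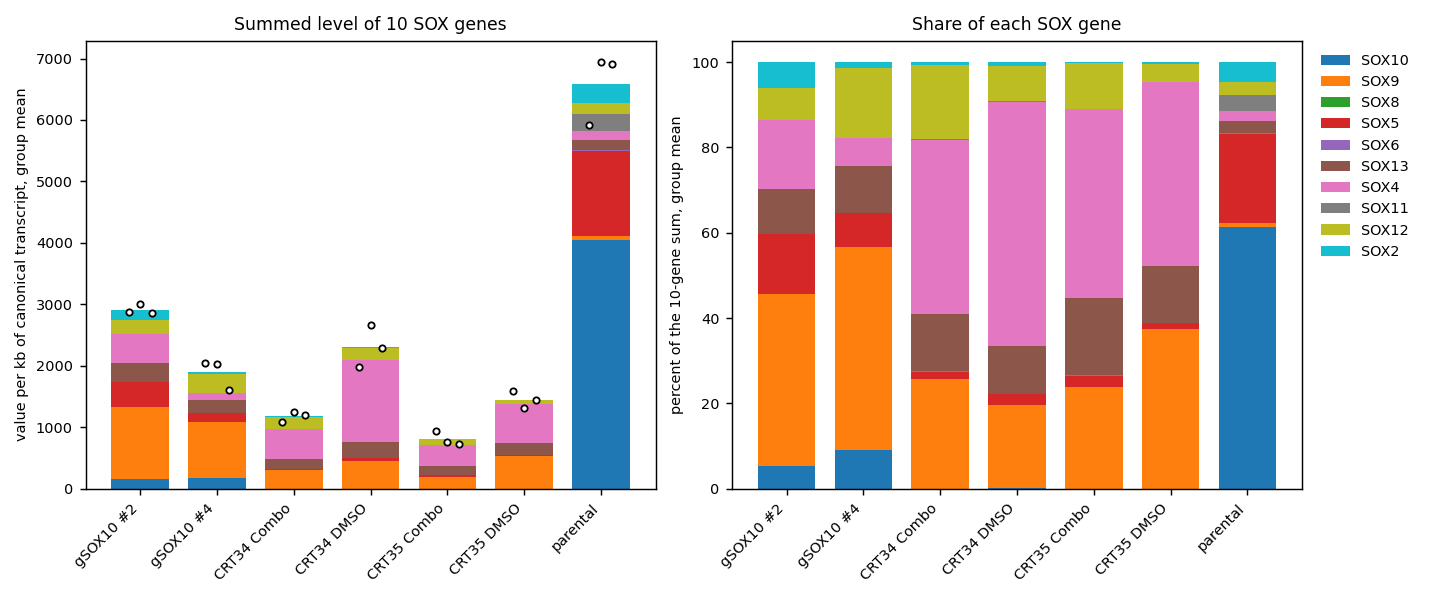
Left, group means of the 10 SOX genes per kb of canonical transcript, stacked, with the sum in each library as open points; right, each gene's mean share of the sum in percent. SOX10 has 61.4% of the sum in parental cells, SOX9 the most in both gSOX10 clones, and SOX4 the most in the 4 CRT groups.

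SOX10 (ENSG00000100146, GRCh38 chr22:37970686-37987422, minus strand) was the targeted gene, so its values check the labels. Loci are given in GRCh38 from GENCODE v44, in which the canonical transcripts of SOX4, SOX11, SOX12 and SOX2 have 1 exon. It had 392, 504 and 459.6 in gSOX10 #2 and 456, 488 and 517 in gSOX10 #4. In CRT34 DMSO it had 6.32, 0 and 0.974, and each library of the other 3 CRT groups was listed at 0. Parental cells had 10348, 11877 and 12822. The clones therefore kept 3.87% (gSOX10 #2) and 4.17% (gSOX10 #4) of the parental mean, and their libraries overlapped neither the parental nor the CRT ones. The log2 change was -4.69 (SE 0.47, limma adjusted p = 3.36e-07) in gSOX10 #2 and -4.58 (SE 0.47, adjusted p = 4.67e-07) in gSOX10 #4, and -12.22 in CRT34 DMSO (SE 0.47, adjusted p = 5.17e-13). A table of RNA values does not show whether the transcript left in the clones makes protein.

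The exons of SOX10 overlap those of POLR2F, an RNA polymerase subunit gene on the other strand, and the sources differ on whether the libraries kept strand. POLR2F averaged 5527 in gSOX10 #2, 8283 in gSOX10 #4 and 3882 to 5013 in the CRT groups, against 9448 in parental cells. The CRT groups with SOX10 at 0 had POLR2F means of 3882 or more.

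SOX9 (ENSG00000125398, chr17:72121020-72126416, plus strand), the cartilage factor of the same group, changed against parental cells in the direction opposite to SOX10. Between the clones and the CRT groups it did not, as both were higher in the clones. It had 4575, 4769 and 4472 in gSOX10 #2 and 4020, 4234 and 2517 in gSOX10 #4. The CRT lines had 1221, 1451 and 874 in CRT34 Combo, 1731, 1795 and 1743 in CRT34 DMSO, 935, 823 and 522 in CRT35 Combo and 1555, 2347 and 2370 in CRT35 DMSO. Parental cells had 213, 214 and 261. Each library of the other 6 groups was above each parental one, and both clones were above all CRT libraries. SOX9 rose by 4.33 on the log2 scale in gSOX10 #2 (SE 0.23, adjusted p = 1.85e-10), to 2010% of the parental mean, and by 3.93 in gSOX10 #4 (SE 0.23, adjusted p = 4.80e-10). The change was 2.34 in CRT34 Combo, 2.94 in CRT34 DMSO, 1.69 in CRT35 Combo and 3.16 in CRT35 DMSO, and the highest adjusted p of these 4 was 8.66e-06. SOX9-AS1, an RNA gene that spans SOX9 on the other strand without sharing exons, averaged at most 16.3 in any group.

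SOX8 (ENSG00000005513, chr16:981770-986979, plus strand), the remaining SoxE gene, was near the limit of detection. It was at 0 in all 6 clone libraries. It had 1.83, 4.90 and 0 in CRT34 Combo, 6.39, 3.95 and 0 in CRT34 DMSO, 5.45, 2.00 and 1.86 in CRT35 Combo and 7.22, 1.12 and 2.08 in CRT35 DMSO, against 2.41, 16.9 and 23.1 in parental cells. The CRT libraries overlapped the lowest parental one. SOX8 was the only 1 of the 10 that did not reach a value of 10 in 3 libraries and was not tested.

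**Figure D2:**
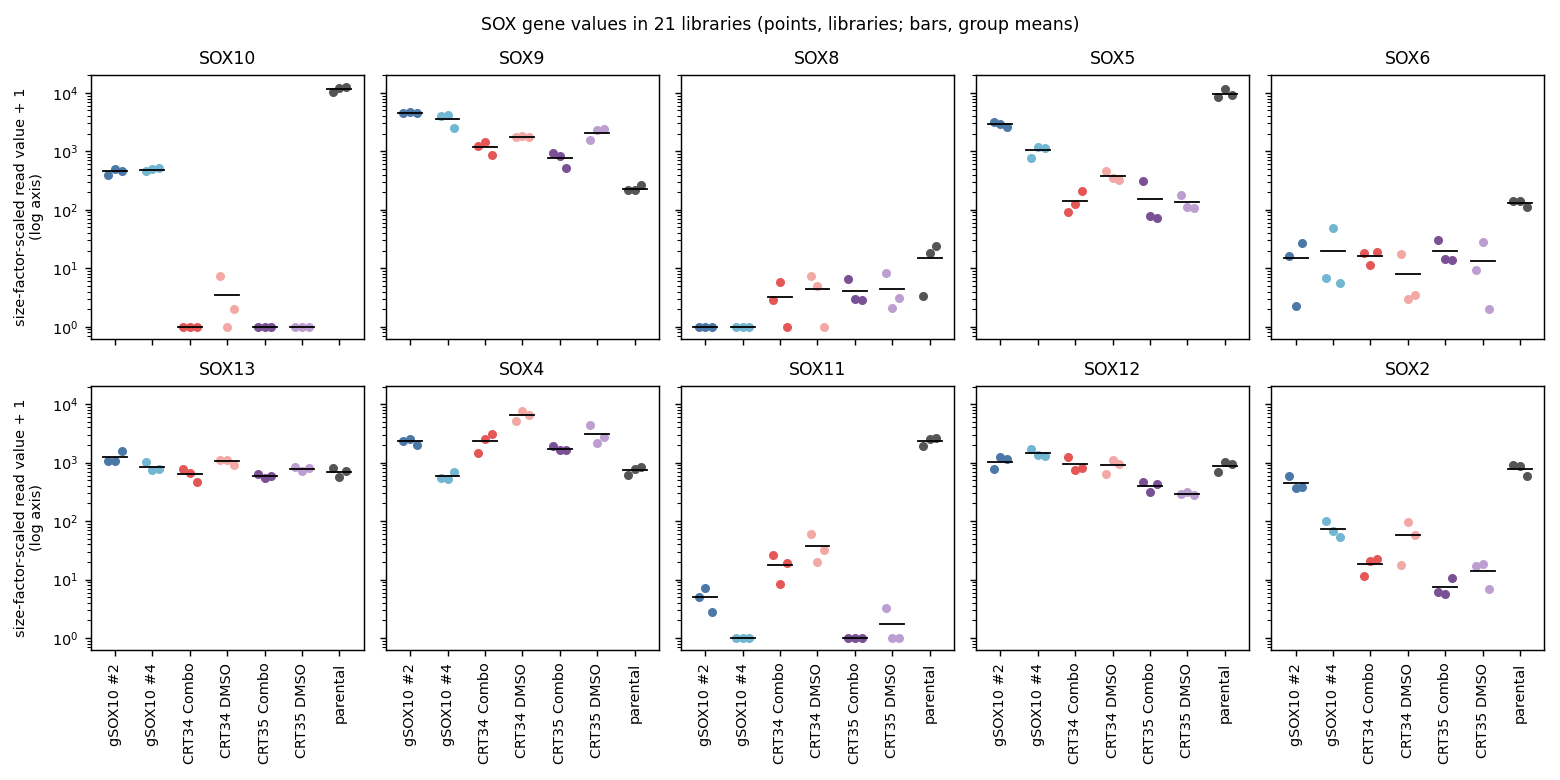
Values of each SOX gene in every library plus 1 (log axis), by group, with a point for each library and a bar for the group mean. SOX10 is at 10348 to 12822 in parental cells and at 517 or less elsewhere; SOX9 is at 213 to 261 in parental cells and at 522 or more elsewhere.

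SOX5 (ENSG00000134532, chr12:23529504-24562544, minus strand), a SoxD factor that in mouse melanocytes modulates the action of SOX10, fell in every group, least in gSOX10 #2. It had 3146, 2968 and 2653 in gSOX10 #2 and 782, 1187 and 1154 in gSOX10 #4. The CRT groups had 92.5, 127 and 207 in CRT34 Combo, 458, 352 and 326 in CRT34 DMSO, 311, 77.1 and 72.6 in CRT35 Combo and 179, 112 and 108 in CRT35 DMSO, against 8545, 11437 and 9266 in parental cells. The order of the means was parental, gSOX10 #2, gSOX10 #4, CRT34 DMSO, and then CRT35 Combo, CRT34 Combo and CRT35 DMSO. Libraries of neighbors in that order overlapped only among the last 3. The log2 change was -1.73 in gSOX10 #2 (SE 0.41, adjusted p = 0.00205) and -3.24 in gSOX10 #4 (SE 0.41, adjusted p = 5.59e-06). It was -6.16 in CRT34 Combo, -4.69 in CRT34 DMSO, -6.32 in CRT35 Combo and -6.21 in CRT35 DMSO.

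SOX6 (ENSG00000110693, chr11:15966449-16739591, minus strand), which acts with SOX5 beside SOX9 in mouse cartilage, was low throughout. It had 14.9, 1.26 and 26.3 in gSOX10 #2, 5.70, 46.9 and 4.58 in gSOX10 #4, and 0.989 to 28.9 in the 12 CRT libraries, against 143, 139 and 109.9 in parental cells. No library of the other groups reached the lowest parental one, but the spread within groups was wide. The log2 change ran from -4.53 (SE 0.99) in CRT34 DMSO to -2.84 (SE 0.99, adjusted p = 0.0226) in CRT35 Combo. The call in CRT35 Combo was lost without parental replicate 1 or 2 or CRT35 Combo replicate 2 or 3 (adjusted p = 0.0541 to 0.0624), in CRT34 Combo without its replicate 2 (adjusted p = 0.0560) and in gSOX10 #4 without its replicate 3 (adjusted p = 0.0520).

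SOX13 (ENSG00000143842, chr1:204073115-204127743, plus strand), known from mouse gamma-delta T cells, was the steadiest of the SoxD genes. It averaged 1226 ± 286 in gSOX10 #2, 846 ± 143 in gSOX10 #4, 637 ± 157 in CRT34 Combo, 1053 ± 110 in CRT34 DMSO, 586 ± 47 in CRT35 Combo and 787 ± 60 in CRT35 DMSO, against 703 ± 122 in parental cells. It did not reach 2-fold against parental cells in any group. Its log2 change ran from -0.25 in CRT35 Combo (95% interval -0.67 to 0.17) to 0.79 in gSOX10 #2 (0.37 to 1.21, adjusted p = 0.00348).

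Among the SoxC genes SOX4 rose and SOX11 fell in gSOX10 #2 and in the CRT groups, and SOX12 was called in the CRT35 groups. SOX4 (ENSG00000124766, chr6:21593751-21598619, plus strand), often high in invasive carcinomas, had 2331, 2556 and 2008 in gSOX10 #2. In gSOX10 #4 it had 542, 517 and 688. It had 1435, 2523 and 3140 in CRT34 Combo, 5103, 7770 and 6503 in CRT34 DMSO, 1919, 1630 and 1633 in CRT35 Combo and 4348, 2192 and 2704 in CRT35 DMSO, against 609.9, 778 and 834 in parental cells. All libraries but those of gSOX10 #4, which overlapped the parental ones, were above parental cells. SOX4 rose by 1.64 on the log2 scale in gSOX10 #2 (SE 0.26, adjusted p = 6.29e-05), 1.61 in CRT34 Combo, 3.11 in CRT34 DMSO, 1.23 in CRT35 Combo and 2.01 in CRT35 DMSO. In gSOX10 #4 the change was -0.35 (95% interval -0.89 to 0.20, adjusted p = 0.313).

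SOX11 (ENSG00000176887, chr2:5692384-5701385, plus strand), a factor of embryonic neurons, was close to a switch. It had 3.94, 6.10 and 1.76 in gSOX10 #2 and 0 in all 3 libraries of gSOX10 #4. In the CRT34 line it had 25.3, 7.52 and 18.3 with Combo and 58.6, 18.9 and 31.6 with DMSO. In the CRT35 line it was at 0 in all 3 Combo libraries and had 2.30, 0 and 0 with DMSO. Parental cells had 1959, 2492 and 2643. In relation to the parental mean the level was 0.166% in gSOX10 #2, 0.721% in CRT34 Combo, 1.54% in CRT34 DMSO and 0.0325% in CRT35 DMSO. The log2 change was -9.0 in gSOX10 #2 (SE 0.54, adjusted p = 5.80e-10) and -6.12 in CRT34 DMSO (SE 0.54, adjusted p = 4.51e-08). A low RNA gene that shares exons with SOX11 on its strand averaged at most 6.39.

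SOX12 (ENSG00000177732, chr20:325552-330224, plus strand), the least studied SoxC gene, had 768, 1225 and 1136 in gSOX10 #2 and 1692, 1364 and 1292 in gSOX10 #4. It had 1270, 759.8 and 795 in CRT34 Combo, 639, 1108 and 947 in CRT34 DMSO, 456, 311 and 436 in CRT35 Combo and 285, 317 and 283 in CRT35 DMSO, against 685, 1009 and 935 in parental cells. Only the CRT35 libraries lay wholly below the parental ones, and only those of gSOX10 #4 wholly above them. The log2 change was -1.13 in CRT35 Combo (SE 0.25, adjusted p = 0.000851) and -1.55 in CRT35 DMSO (SE 0.25, adjusted p = 5.04e-05). Without CRT35 Combo replicate 2 the first was -0.95, short of 2-fold. In gSOX10 #4 it was 0.73 (adjusted p = 0.0243), also short of 2-fold.

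SOX2 (ENSG00000181449, chr3:181711925-181714436, plus strand), the stem cell factor, followed SOX5. It had 579, 363 and 377 in gSOX10 #2 and 97.5, 66.4 and 52.9 in gSOX10 #4. It had 10.5, 19.6 and 21.6 in CRT34 Combo, 17.1, 96.3 and 57.6 in CRT34 DMSO, 5.04, 4.77 and 9.77 in CRT35 Combo and 16.1, 17.1 and 5.96 in CRT35 DMSO, against 897, 857 and 593 in parental cells. The libraries of all other groups were below parental cells, those of gSOX10 #2 by little: its change was -0.84 (95% interval -1.92 to 0.24, adjusted p = 0.198). SOX2 fell in gSOX10 #4 (log2 change -3.44, SE 0.51, adjusted p = 4.12e-05), CRT34 Combo (-5.46), CRT34 DMSO (-4.04), CRT35 Combo (-6.74) and CRT35 DMSO (-5.90). SOX2 lies within SOX2-OT, a long RNA gene of the same strand with no shared exon, which averaged 15.9 in gSOX10 #2, 2.6 in gSOX10 #4 and 3.54 to 9.75 in the CRT groups, against 48.2 in parental cells.

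**Figure D3:**
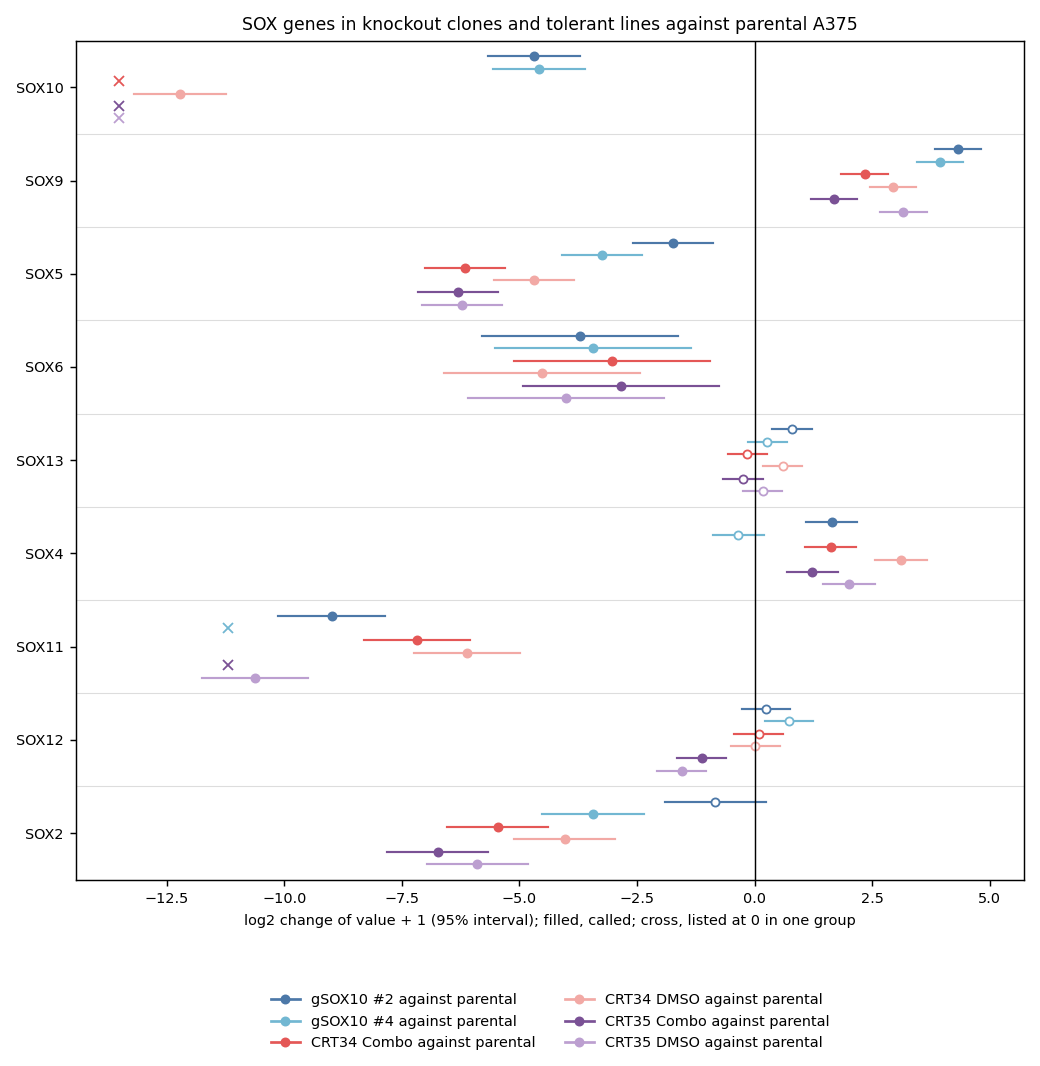
Log2 change of value + 1 against parental A375 for the 9 SOX genes tested, with the 95% interval from limma; filled points were called, open points were not, and crosses mark a gene listed at 0 in all libraries of a group, whose position is set by the pseudocount. SOX9 lies between 1.69 and 4.33, SOX5 between -6.32 and -1.73, and SOX13 between -0.25 and 0.79.

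A gene was called where limma's adjusted p was at most 0.05 and the change at least 2-fold. Against parental cells 6 of the 9 tested SOX genes were called in gSOX10 #2, where 23.7% of all 19290 genes were called. SOX4 and SOX9 were higher (15.9% of all genes) and SOX10, SOX11, SOX5 and SOX6 lower (7.78%). In gSOX10 #4 6 were called (20.7% of all genes), with SOX9 higher (11.8%) and SOX10, SOX11, SOX2, SOX5 and SOX6 lower (8.91%). In CRT34 Combo 7 were called (27.2% of all genes), with 2 higher (19.1%) and 5 lower (8.09%), and in CRT34 DMSO 7 (23.1%), with 2 higher (15.7%) and 5 lower (7.35%). In both, SOX4 and SOX9 were higher and SOX10, SOX11, SOX2, SOX5 and SOX6 lower. In CRT35 Combo 8 were called (30.3% of all genes), with 2 higher (20.1%) and 6 lower (10.2%), and in CRT35 DMSO 8 (23.7%), with 2 higher (15.7%) and 6 lower (7.98%). The added gene was SOX12, lower in both. The median log2 change of the 9 was -0.84 in gSOX10 #2, -3.24 in gSOX10 #4, -3.04 in CRT34 Combo, -4.04 in CRT34 DMSO, -2.84 in CRT35 Combo and -4.01 in CRT35 DMSO, and that of all genes between 0 and 0.05. SOX10 is among the called genes in each of these counts and among the 9 in the medians. It was the gene targeted in the clones, and the study had reported reduced SOX10 in the CRT lines. Its call was therefore fixed by the choice of groups and says nothing of the other members. The 6 comparisons share the parental libraries and are not independent of each other.

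The windows upstream of SOX2, which fell, and SOX4, which rose in most groups, are shown to set apart what sequence lies before the starts of 2 single-exon members (RefSeq, GRCh38.p14, 250 bases up to the start, 5′ to 3′ on the gene's strand, chr3:181711675-181711924 and chr6:21593501-21593750, both plus). Capitals mark a match to a SOX-type motif, searched on both strands as ACAAAG, as the related run ACAATG and as the overlapping run AACAAT.
SOX2: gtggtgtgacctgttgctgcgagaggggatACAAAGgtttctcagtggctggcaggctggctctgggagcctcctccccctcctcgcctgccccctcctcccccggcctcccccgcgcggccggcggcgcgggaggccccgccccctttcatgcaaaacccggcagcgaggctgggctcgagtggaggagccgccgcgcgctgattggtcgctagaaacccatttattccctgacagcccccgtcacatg
SOX4: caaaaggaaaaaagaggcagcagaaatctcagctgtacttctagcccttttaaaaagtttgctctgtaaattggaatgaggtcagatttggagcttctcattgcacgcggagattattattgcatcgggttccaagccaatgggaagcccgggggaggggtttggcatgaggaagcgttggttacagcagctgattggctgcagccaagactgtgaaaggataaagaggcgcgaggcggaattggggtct
The SOX2 window held 1 match, and the SOX4 window, like those of SOX12 and SOX13, none. The SOX5 window held 3, and the 5 windows of SOX6 held 0, 1, 0, 2 and 5. Overlapping matches were counted separately, and the SOX5 window and the SOX6 windows with 2 and 5 each hold an overlapping pair. The SOX5 window and 3 of those of SOX6 overlap exons of the same gene. Of 35116 RefSeq promoter windows of the same length 25.6% held at least 1 of the 3 motifs, and 13.7% held ACAAAG. SOX10, SOX9, SOX8 and SOX11 had no window in the reference used and were not searched. A match is only a run of letters and says nothing of binding in these cells.

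The clones were compared with each other. Each guide had 1 clone, so that guide and clone cannot be told apart here. In gSOX10 #4 against gSOX10 #2, 4 of 9 SOX genes were called (9.7% of all genes), all lower (7.06% of all genes): SOX4 (log2 difference -1.98, SE 0.26, adjusted p = 2.91e-05), SOX2 (-2.6, SE 0.51, adjusted p = 0.00132), SOX5 (-1.51, SE 0.41, adjusted p = 0.0119) and SOX11. Their libraries did not overlap. The difference of SOX11 is between 0 in gSOX10 #4 and a few reads in gSOX10 #2, and with a pseudocount of 10 it was -0.47 (adjusted p = 0.270). The call of SOX5 was lost without gSOX10 #4 replicate 1 (adjusted p = 0.0512). SOX10 differed by 0.11 (95% interval -0.86 to 1.09) and SOX9 by -0.40 (-0.89 to 0.10).

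The inhibitors were compared with DMSO within each CRT line. In CRT34 Combo against CRT34 DMSO, 2 of 9 SOX genes were called (5.1% of all genes), 0 higher (2.84%) and 2 lower (2.26%): SOX4 (log2 change -1.50, SE 0.26, adjusted p = 0.00166) and SOX5 (-1.47, SE 0.41, adjusted p = 0.0313). All 3 Combo libraries of both genes were below all DMSO libraries, and the Combo library nearest to DMSO was in both genes replicate 3, the one that stood apart. Fitted on the libraries of the compared groups alone, neither was called (adjusted p = 0.0829 for SOX4 and 0.108 for SOX5), and SOX5 lost its call without any 1 of 5 of the 6 libraries, replicate 3 of Combo being the exception (adjusted p = 0.0593 to 0.131). SOX13 changed by -0.75 (SE 0.20, adjusted p = 0.0257), under 2-fold.

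In CRT35 Combo against CRT35 DMSO, 1 of 9 was called (1.14% of all genes), with 0 higher (0.487%) and 1 lower (0.648%). This was SOX9, with a log2 change of -1.48 (SE 0.23, adjusted p = 0.00242) and no overlap between libraries. In CRT34 the change of SOX9 was -0.60 (SE 0.23, adjusted p = 0.130), and SOX4 changed by -0.78 in CRT35 (SE 0.26, adjusted p = 0.152). SOX5 changed by -0.10 in CRT35 (95% interval -0.95 to 0.75). The difference of the inhibitor effect between the lines (CRT35 minus CRT34) was tested itself. No SOX gene was called by limma (0.0104% of all genes were), and 0 were called in each alternative that was run. At limma's unadjusted p under 0.05 there were 1343 of all 19290 genes, and 2 of the 9 SOX genes. These were SOX9, with -0.87 (SE 0.33, unadjusted p = 0.0164, adjusted p = 0.568), and SOX5, with 1.37 (SE 0.57, unadjusted p = 0.0276, adjusted p = 0.621). The values for SOX4 were 0.72 (95% interval -0.05 to 1.49, adjusted p = 0.746).

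The 2 CRT lines were compared at the same treatment. In CRT35 DMSO against CRT34 DMSO, 5 of 9 SOX genes were called (8.11% of all genes), 0 higher (3.69%) and 5 lower (4.42%). These were SOX11 (log2 difference -4.50, SE 0.54, adjusted p = 1.59e-05), SOX12 (-1.57, SE 0.25, adjusted p = 0.000254), SOX4 (-1.11, SE 0.26, adjusted p = 0.00651), SOX5 (-1.53, SE 0.41, adjusted p = 0.0149) and SOX2 (-1.86, SE 0.51, adjusted p = 0.0187). The SOX2 libraries overlapped, and its call was lost in a fit on these groups alone (adjusted p = 0.114) and without CRT34 DMSO replicate 2 or 3 or CRT35 DMSO replicate 3 (adjusted p = 0.0717 to 0.114). SOX5 lost its call without CRT34 DMSO replicate 1 or CRT35 DMSO replicate 2 or 3 (adjusted p = 0.0521 to 0.0645). SOX4 was under 2-fold without CRT34 DMSO replicate 2 (-0.96) or CRT35 DMSO replicate 2 (-0.89).

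In CRT35 Combo against CRT34 Combo, 2 were called (6.91% of all genes), 0 higher (3.17%) and 2 lower (3.74%): SOX11, at 0 in all CRT35 Combo libraries, and SOX12 (-1.21, SE 0.25, adjusted p = 0.00253). The SOX12 difference was -0.97 without CRT34 Combo replicate 1. SOX9 differed by -0.65 with Combo (adjusted p = 0.0736) and by 0.23 with DMSO (95% interval -0.27 to 0.72).

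**Figure D4:**
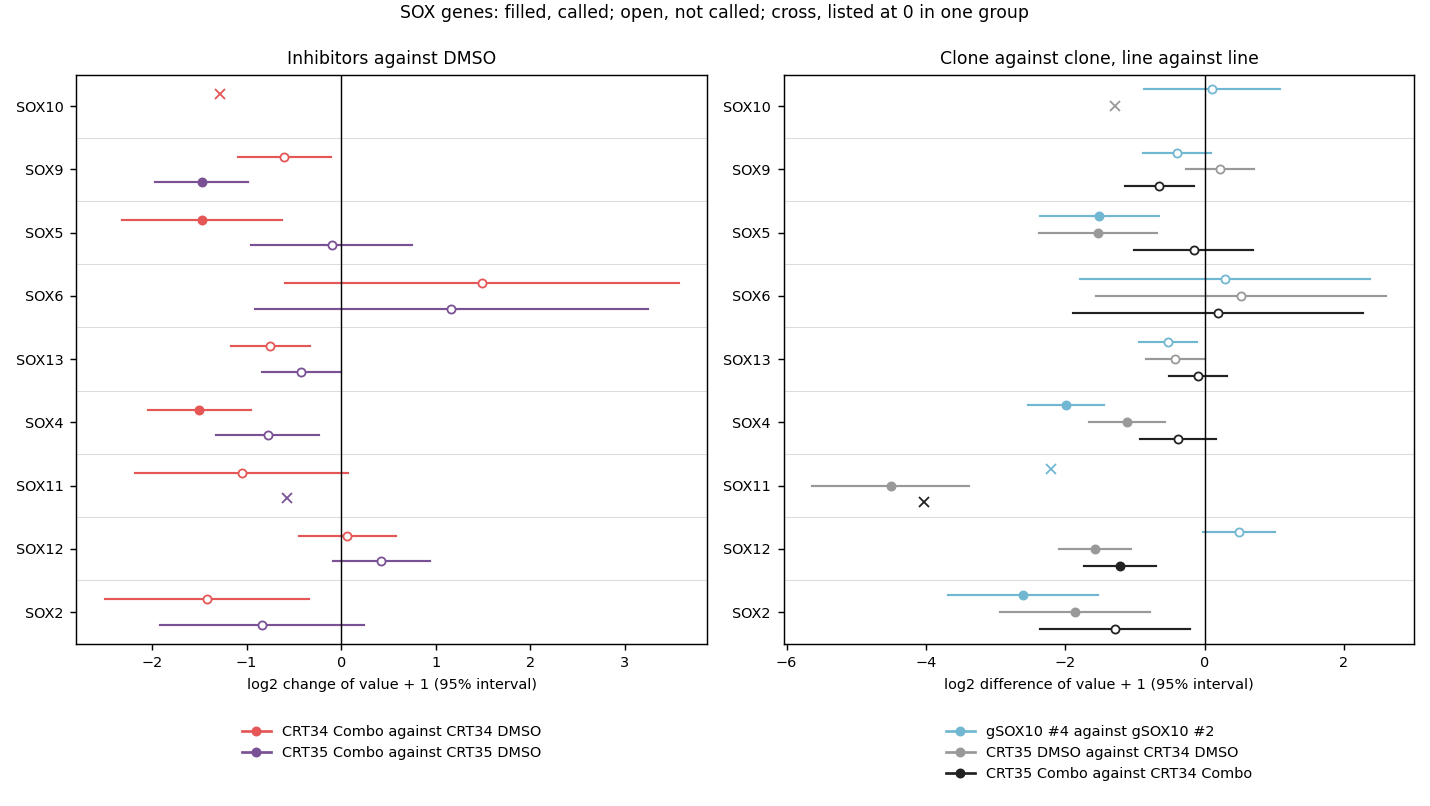
Log2 change of value + 1 with the 95% interval from limma, left for inhibitors against DMSO in each CRT line, right for clone against clone and line against line. Filled points were called and open points were not; crosses mark a gene listed at 0 in all libraries of a group, whose position is set by the pseudocount, and SOX10 has no mark where it was at 0 in both groups. SOX4 lies at -1.50 in CRT34 and -0.78 in CRT35 on the left, and SOX9 at -0.60 and -1.48.

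Genes known as targets or partners of these factors were counted from lists drawn up by function. These lists were chosen with earlier results of these data known, so the counts are descriptive. Of 25 SOX10 targets of glia and melanocytes 19 passed the filter, and 11 were called lower and 0 higher in gSOX10 #2, 12 and 0 in gSOX10 #4, 10 and 2 in CRT34 Combo, 11 and 2 in CRT34 DMSO, 11 and 3 in CRT35 Combo, and 11 and 1 in CRT35 DMSO. Over all genes, 7.35% to 10.2% were called lower and 11.8% to 20.1% higher in these 6 comparisons. The median log2 change of the 19 was between -2.85 and -1.16, and that of all genes between 0 and 0.05. The secreted melanoma protein MIA averaged 496 in gSOX10 #2, 218 in gSOX10 #4, 21 in CRT34 Combo, 26.0 in CRT34 DMSO, 7.77 in CRT35 Combo and 7.25 in CRT35 DMSO, against 3715 in parental cells. GJB1, a connexin of myelinating Schwann cells, averaged 3.11 in gSOX10 #2 and was at 0 in all libraries of the other 5 groups, against 378 in parental cells. TYRP1, a pigment enzyme, was higher in CRT34 Combo (621), CRT34 DMSO (386) and CRT35 Combo (199), against 28.1 in parental cells, with SOX10 at or near 0. It fell in gSOX10 #4 (7.40, log2 change -1.63, adjusted p = 0.0303), and was not called in gSOX10 #2 (28.1, log2 change 0.16) or CRT35 DMSO (60.6, log2 change 1.19). MITF, the melanocyte master regulator and a direct SOX10 target, averaged 7658 in CRT34 Combo (log2 change 2.28) and 3382 in CRT35 Combo (1.21), against 1447 in parental cells, and both were called. It averaged 2396 in gSOX10 #2 (0.72), 1449 in gSOX10 #4 (-0.10), 2173 in CRT34 DMSO (0.56) and 1564 in CRT35 DMSO (0.11), and these were not.

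Of 15 cartilage targets of SOX9, 12 passed the filter. In gSOX10 #2 1 was called higher (15.9% of all genes) and 2 lower (7.78%). The counts for gSOX10 #4 were 0 higher (11.8%) and 4 lower (8.91%). In CRT34 Combo 2 were called higher (19.1% of all genes) and 6 lower (8.09%), and in CRT34 DMSO 1 higher (15.7%) and 5 lower (7.35%). In CRT35 Combo 2 were called higher (20.1% of all genes) and 5 lower (10.2%), and in CRT35 DMSO 2 higher (15.7%) and 5 lower (7.98%). The median log2 change of the 12 was between -1.06 and -0.33. The link protein gene HAPLN1 averaged 223 in gSOX10 #2, 72.6 in gSOX10 #4, 19.2 in CRT34 Combo, 8.17 in CRT34 DMSO, 44 in CRT35 Combo and 42.7 in CRT35 DMSO, against 3438 in parental cells. COL2A1, the main cartilage collagen, averaged 0 to 3.72 in the 6 groups, against 58.6 in parental cells. COL9A3, another cartilage collagen gene, averaged 1974 in gSOX10 #2 (log2 change 0.46, adjusted p = 0.352), 135 in gSOX10 #4 (-3.56, adjusted p = 1.12e-06), 15.4 in CRT34 Combo (-6.45), 4.68 in CRT34 DMSO (-8.03), 119 in CRT35 Combo (-3.64) and 109 in CRT35 DMSO (-3.76), against 1496 in parental cells. It was called in all of these but gSOX10 #2. MATN3, a cartilage matrix protein, rose in gSOX10 #2 (log2 change 1.84, adjusted p = 7.00e-06), CRT35 DMSO (1.64), CRT35 Combo (1.41) and CRT34 Combo (1.08). SNORC, of the same list, was called higher in 4 of the 6 comparisons. It averaged 31.9 in gSOX10 #2, 61.2 in gSOX10 #4, 98.4 in CRT34 Combo and 92.6 in CRT34 DMSO. Its means were 89.6 in CRT35 Combo and 90.9 in CRT35 DMSO, against 26.0 in parental cells.

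The other lists were those of the SoxC genes and SOX2, read against the same shares of all genes (7.35% to 10.2% lower, 11.8% to 20.1% higher). Of 11 SOX4 and SOX11 targets and neuronal genes 8 were tested, and 1 was called higher and 2 lower in gSOX10 #2, 0 and 2 in gSOX10 #4, 0 and 3 in CRT34 Combo, 2 and 2 in CRT34 DMSO, 0 and 3 in CRT35 Combo, and 0 and 3 in CRT35 DMSO. The RNA-binding protein gene MEX3A averaged 351 in gSOX10 #2, 756 in gSOX10 #4, 470 in CRT34 Combo, 1203 in CRT34 DMSO, 165 in CRT35 Combo and 282 in CRT35 DMSO, against 2437 in parental cells. MEX3A and EZH2 were called lower in all 6 comparisons and MARCKSL1 in 3. DBN1, DPYSL3 and TEAD2 of the same list were each called higher in 1 of the 6. Of 11 SOX2 partners and stem cell genes 7 were tested, and 0 were higher and 3 lower in gSOX10 #2, 0 and 4 in gSOX10 #4, 2 and 1 in CRT34 Combo, 1 and 1 in CRT34 DMSO, 1 and 2 in CRT35 Combo, and 0 and 2 in CRT35 DMSO. POU3F2, a neural partner of SOX2 also called BRN2, averaged 295 in gSOX10 #2, 451 in gSOX10 #4, 426 in CRT34 Combo, 472 in CRT34 DMSO, 154 in CRT35 Combo and 201 in CRT35 DMSO, against 1528 in parental cells. PAX6 was called higher in CRT34 Combo (mean 16.2) and CRT35 Combo (11.9), against 6.55 in parental cells, with overlapping libraries. POU5F1 was called higher in 2 of the 6 comparisons and lower in 1. LIN28B was called lower in 3, POU3F3 in 2 and SALL4 in 1.

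Likeness of pattern was described by Pearson's r of log2(value + 1) over the 21 libraries, which form 7 groups, so that r mostly reflects group means. Among protein-coding genes SOX10 was most like MIA (0.974), CD96 (0.974) and BACE2 (0.973), and among the members most like SOX5 (0.951). SOX5 was most like MIA (0.971), CD74 (0.958) and SOX10, and SOX2 most like HR (0.957), SOX5 (0.934) and MIA (0.932). SOX9 was most like MAPK13 (0.937), MLPH (0.930) and DNMBP (0.928), and its nearest member was SOX13 with only 0.597. SOX4 was most like TNFRSF11B (0.935), LHX8 (0.918) and AMTN (0.916) and least like SOX10 (-0.673). SOX11 was most like CCNJL (0.959), SNRPB2 (0.956) and OPRD1 (0.939), and SOX12 most like SPCS1 (0.938), PCBP4 (0.936) and RNF123 (0.936). SOX13 was most like CYP24A1 (0.830), HPGD (0.821) and HPCAL1 (0.818). SOX6 had the weakest partners, led by JPH1 (0.758).

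The other 9 SOX genes were low or absent. SOX1, SOX3, SOX14 and SOX17 were at 0 in all 21 libraries, SOX21 did not exceed 1.06 and SOX15 did not exceed 14.5. SOX7, SOX18 and SOX30 passed the filter. SOX18, an endothelial factor, had 60.5, 35.2 and 68.3 in CRT35 Combo, against 10.6, 13.6 and 19.2 in parental cells, and averaged 5.66 to 35.3 in the other groups. Summed over 5 endothelial markers, values were 2470 to 5065 in CRT34 Combo, 1943 to 2481 in CRT34 DMSO, 5120 to 7672 in CRT35 Combo, 1963 to 3943 in CRT35 DMSO and 130 to 239 in the clones, against 168 to 220 in parental cells, and the part of this in SOX18 was not tested. The markers did not move together. In CRT34 Combo 3 were called higher (19.1% of all genes) and 1 lower (8.09%), and in CRT34 DMSO 3 higher (15.7%) and 2 lower (7.35%). In CRT35 Combo 2 were called higher (20.1%) and 1 lower (10.2%), and in CRT35 DMSO 2 higher (15.7%) and 1 lower (7.98%). SOX30, a factor of male germ cells, averaged 13.5 in gSOX10 #2, 10.2 in gSOX10 #4, 13.4 in CRT34 Combo, 6.96 in CRT34 DMSO, 11.5 in CRT35 Combo and 5.23 in CRT35 DMSO, against 0.930 in parental cells, where 2 of 3 libraries were at 0.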

How the data were processed

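RNA of 21 A375 libraries in 7 groups of 3 was sequenced on an Illumina platform. The labels name a library kit that does not mark strand and the study's methods one that does. These sources do not settle whether reads of overlapping genes on opposite strands were kept apart. The submitters' processing notes name STAR 2.6.1a, RSEM, Picard and DESeq2 with GRCh38. The deposited values are signal, that is RSEM read estimates divided by the authors' size factor for each library and, judging by steps that differ between genes, a smaller factor for each gene. They are not counts, so no count model was used. Groups came from the labels. Ensembl IDs were matched to GENCODE v44, which named 58472 of 58870. The genes and lists were chosen with earlier results of these data known.

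Genes that reached a value of 10 in 3 or more libraries (19290 of 32889 above 0 anywhere) were fitted with limma 3.58.1 in R 4.3.3 (limma-trend, two-sided) on log2(value + 1), with 1 mean for each group over all 21 libraries. Differences therefore understate changes of low genes. A gene was called at a Benjamini-Hochberg adjusted p of at most 0.05 over all genes and at least 2-fold. Levels of different genes were compared only per kb of the canonical transcript. All 10 SOX genes were named whatever their values. For the other lists the 2 rising and 2 falling members with the lowest p in a comparison could be named. For SOX patterns the 3 protein-coding genes with the highest r were named. Shared replicate numbers were tested for pairing: deviations of same-numbered libraries correlated above 0.1 in all 3 pairs only between CRT35 Combo and CRT34 Combo (0.207 to 0.253). Alternatives were a pseudocount of 10, no filter, equal library totals, quantile normalization, the compared groups alone, the replicate number as a block, and leaving out libraries. Guide sequences and proteins were not used here.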

Additional observations from a re-analysis of the deposited data

Results flagged for a closer look

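SOX genes differed between the 2 knockout clones relative to the same parental cells, by limma's test of the difference itself. In gSOX10 #4 against gSOX10 #2 the log2 difference was -1.51 for SOX5, -1.98 for SOX4, -2.20 for SOX11 and -2.6 for SOX2. The SOX11 value rests on 1.76 to 6.10 in gSOX10 #2 against 0 in gSOX10 #4 and depends on the pseudocount, and SOX5 lost its call without gSOX10 #4 replicate 1.

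SOX genes also differed between the 2 tolerant lines. In CRT35 DMSO against CRT34 DMSO the log2 difference was -1.53 for SOX5, -1.11 for SOX4, -4.50 for SOX11, -1.57 for SOX12 and -1.86 for SOX2. The SOX2 libraries overlapped, SOX2, SOX5 and SOX4 each lost their call in some fits with 1 library left out, and the lowest count of SOX genes called was then 3 in place of 5. In CRT35 Combo against CRT34 Combo it was -4.03 for SOX11, with CRT35 Combo at 0, and -1.21 for SOX12, which was -0.97 without CRT34 Combo replicate 1. Each clone and each line is a single derivation, so that the guide or the tumor of origin and the clone cannot be told apart.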

How the results depend on the processing

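No SOX change reversed its direction past the threshold in any alternative run. Of the counts of SOX genes called, 76 of 79 outside the leave-one-out fits stayed within 1.5 times. In a fit on the compared groups alone the count in CRT34 Combo against CRT34 DMSO was 0 in place of 2 and in CRT35 Combo against CRT34 Combo 1 in place of 2. With the replicate block the first was 1 (SOX5 adjusted p = 0.0636). The replicate block changed no other count of SOX genes called, including between the Combo groups, whose numbers paired and where 2 were called. The labels number the gSOX10 #2 libraries in another way than those of the other groups, so that their replicate numbers are names only and gSOX10 #2 had no such fit. Leaving out 1 library at a time, the count ran from 1 to 2 in CRT34 Combo against CRT34 DMSO, 1 to 2 in CRT35 Combo against CRT34 Combo and 3 to 5 in CRT35 DMSO against CRT34 DMSO. It was 6 in gSOX10 #2, 5 to 6 in gSOX10 #4, 6 to 7 in CRT34 Combo, 7 in CRT34 DMSO, 6 to 8 in CRT35 Combo and 8 in CRT35 DMSO, each against parental cells.

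Counts over all genes depended more on the fit. In CRT34 Combo against CRT34 DMSO 983 genes were called, 80 with the compared groups alone, 1543 without CRT34 Combo replicate 3 and CRT35 DMSO replicate 1, and 535 to 1534 with 1 library left out. In CRT35 Combo against CRT35 DMSO 219 were called, 347 without those 2 libraries and 97 to 206 with 1 left out. In CRT35 Combo against CRT34 Combo 1333 were called and 846 with the compared groups alone. For the difference of inhibitor effects 2 were called, 12 with a pseudocount of 10, 1 with the compared groups alone, 4 each with no filter, equal totals or quantile normalization, 281 without those 2 libraries, and 2 to 220 with 1 left out. The cause was not tested. Without CRT34 DMSO replicate 1 SOX2 was called in CRT34 Combo against CRT34 DMSO (log2 change -2.11, adjusted p = 0.00979). Without CRT34 DMSO replicate 2, whose SOX10 value was 0, SOX10 was called against CRT34 DMSO in CRT34 Combo (adjusted p = 0.0106) and in CRT35 DMSO (adjusted p = 0.00458), both listed at 0.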
